A study of Spirodela polyrhiza with 4 samples.

Results

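The mid-length solitary H3K9me2 peaks of *S. polyrhiza* line 9509 are the peaks of 1000 to under 5000 bp that lie more than 10000 bp from the next peak on each side. For the first and last peak of a chromosome only the one existing neighbor was considered. The rule found 258 of them among the 5726 peaks of the list, or 4.51%, and among the 2466 peaks of 1000 to under 5000 bp, or 10.5%. The other 2208 peaks of this length are called other mid-length peaks here. The members were chosen by their measured length and gaps, which come from the same peak calls as all other values below. Lengths and gaps are therefore given as a description, and so is the fold enrichment, without any test.

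The peaks came from 1 ChIP-seq library of H3K9me2, histone H3 dimethylated at lysine 9. It was made with an antibody against the mark from crosslinked, sonicated nuclei of whole plantlets of line 9509, one clonal line of the greater duckweed, with no treatment named. The study asked with this library whether a plant with weak CHG methylation and no *CMT2* gene still carries heterochromatin. The library pools all cell types of the plantlet, so a weak mark in all cells and a strong mark in few cells cannot be told apart. With 1 library there is no replicate, and every interval below covers counting error only, with peaks treated as independent. The depth behind a single peak is unknown because the list carries no read counts. Coordinates are 1-based and refer to the line 9509 genome with the chromosome numbers of the list. No source used here names the build.

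In plants, H3K9me2 marks silent chromatin and sits mostly on transposons and other repeats. It is placed by histone methyltransferases of the SUVH family, which bind methylated DNA, and it is in turn bound by the chromomethylases CMT3 and CMT2, which methylate DNA in the CHG and CHH contexts. In *A. thaliana* most of it lies around the centromeres, while in the chromosome arms it forms small islands, often on single transposons. Where the centromeres lie and what sequence is under the solitary peaks were not examined.

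Together the solitary peaks covered 633 kb, which is 4.67% of the 13.6 Mb covered by all peaks and close to their 4.51% of the peak number. When peaks with gaps of at most 10000 bp were linked into chains, the list formed 1781 separate units, of which 1078 were chains of at least 2 peaks and 703 were solitary peaks. Chains had a median of 3 peaks and up to 73. Solitary peaks of any length made up 39.5% of the units. The mid-length ones were 36.7% of the solitary peaks, beside 337 shorter and 108 longer ones, and held 38.1% of the solitary peak length.

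Most solitary peaks were enriched about 2-fold, and few strongly. Fold enrichment, the ratio of the pileup in a peak to the background that MACS2 estimated, had a lowest value of 1.63, a median of 2.22 and a highest of 5.89 (quartiles 1.96 and 2.63, n = 258 peaks). In the other mid-length peaks the median was 2.34 (quartiles 2.04 and 2.78, range 1.61 to 5.30, n = 2208), so the medians differed by −0.12 and the middle ranges overlapped over most of their width. With a gap limit of 5000 bp the difference was −0.06. At least 2-fold enrichment was found in 179 solitary peaks, or 69.4% (95% exact binomial interval 63.4 to 74.9). The same held for 78.8% of the other mid-length peaks (77.1 to 80.5) and for 55.7% of all peaks, a background that includes the many short peaks. At least 3-fold enrichment was reached by 37 solitary peaks, or 14.3%, against 16.5% of the other mid-length and 14.8% of all peaks. Only 4 solitary peaks, or 1.55%, reached 4-fold, against 1.63% and 2.44%. At 3-fold and 4-fold the shares of the 2 mid-length sets differed by less than the counting error of the solitary set. At 2-fold they differed by more, but the intervals cannot test this difference. They treat peaks of the same library as independent, and that of the other mid-length peaks is too narrow because such peaks lie close together. The shares are therefore a description only.

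The q listed for each peak followed the same order. The −log10 q of the solitary peaks had a median of 4.27 (range 1.27 to 34.8), compared with 5.06 in the other mid-length peaks. A q under 0.01 was given to 237 solitary peaks, or 91.9%, beside 94.1% of the other mid-length and 75.7% of all peaks. A q under 1e-05 was given to 113, or 43.8% (37.7 to 50.1), beside 50.6% (48.5 to 52.7) and 36.0%. The remaining 21 solitary peaks, with a q of 0.01 or more, have the weakest listed q of the set.

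The difference in median fold enrichment varied with length. From 1000 to under 2000 bp, 126 solitary peaks had a median of 2.02 and 1031 other peaks a median of 2.10. From 2000 to under 3000 bp the values were 2.33 (n = 49) and 2.45 (n = 563). The medians were level from 3000 to under 4000 bp, with 2.69 for 40 solitary and 2.69 for 341 other peaks. From 4000 to under 5000 bp the order turned, with 2.92 for 43 solitary peaks and 2.76 for 273 others. The differences were −0.08, −0.12, 0.01 and 0.15, with no test. The share enriched at least 2-fold was lower for solitary peaks in all 4 bins. It was 51.6% against 63.5% of the others in the shortest bin, then 73.5% against 86.5%, 92.5% against 96.8% and, in the longest bin, 95.3% against 98.5%. Spearman's rho of fold enrichment with length was 0.61 over the 258 solitary peaks and 0.53 over the 2208 others. These are descriptions across peaks of 1 library, where both measures come from the same pileup.

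**Figure D1:**
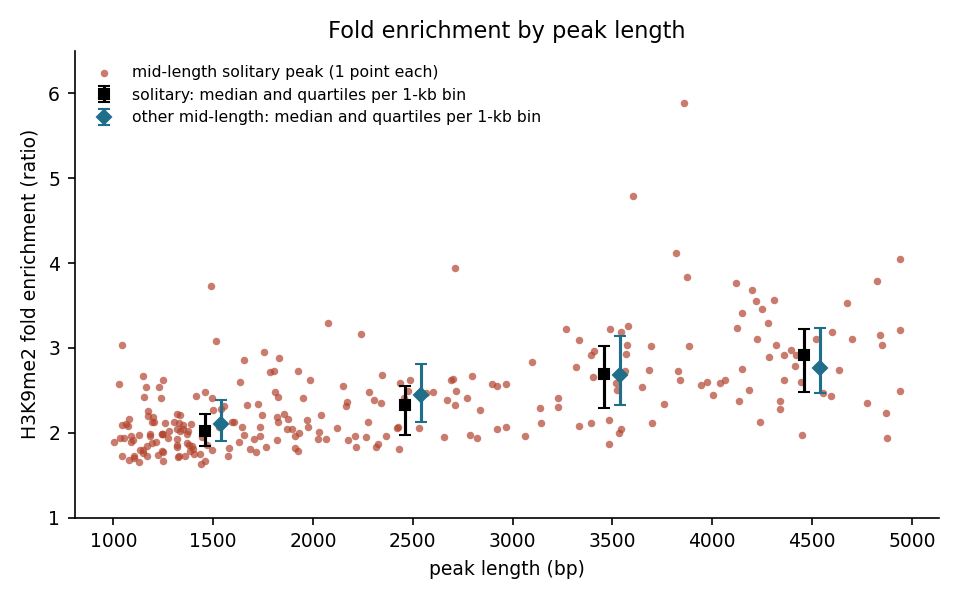
H3K9me2 fold enrichment (ratio, vertical axis) of each of the 258 mid-length solitary peaks (points) against its length in bp (horizontal axis). Squares and diamonds are the medians of solitary and other mid-length peaks per 1-kb bin, and the bars span the quartiles. The solitary median rises from 2.02 in the first bin to 2.92 in the last, and the bars of the 2 sets overlap in every bin.

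Among mid-length peaks in general, those with close neighbors on both sides had the highest median enrichment. Other mid-length peaks with neighbors within 10000 bp on both sides had a median fold enrichment of 2.41 (n = 1271). Those with such a neighbor on only 1 side had a median of 2.27 (n = 937), and the solitary peaks had one of 2.22. Their median lengths were 2165, 1988 and 2052 bp. The interval of the solitary median, 2.13 to 2.36, holds 2.27. It also holds 2.34, the median of all other mid-length peaks, so it does not tell these sets apart. Within the solitary set, the median was 2.28 for the 89 peaks whose smaller gap was at most 20000 bp and 2.28 for the 102 with a smaller gap of up to 50000 bp. It was 2.10 for the 51 with up to 100000 bp and 2.26 for the 16 beyond that, of which the strongest had 3.04. Over the 258 peaks, Spearman's rho of fold enrichment with the smaller gap was −0.07 and that of length with the smaller gap 0.08. Peaks far from any other were thus neither clearly weaker nor shorter than those just past the limit.

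The share of peaks that stood alone varied with length, and not in one direction. Of the peaks under 1000 bp, 13.4% were solitary (interval 12.1 to 14.8). The share was 10.9% (9.15 to 12.8) from 1000 to under 2000 bp and lowest, 8.01% (5.98 to 10.4), from 2000 to under 3000 bp. It was 10.5% (7.61 to 14.0) from 3000 to under 4000 bp, 13.6% (10.0 to 17.9) from 4000 to under 5000 bp and 14.4% (12.0 to 17.1) for peaks of 5000 bp or more. The difference between the bins of 4000 and 2000 bp was 5.60 percentage points (1.25 to 9.95). These bins were picked for their highest and lowest mid-length shares after the values were known. Length and gap also define the set, so the difference is a description that its interval cannot test. It was 1.20 points when gaps of at most 1000 bp were bridged, 1.39 with only peaks of at least 1000 bp, 2.12 with a q under 1e-05, 2.83 with gaps over 20000 bp and 4.20 with a q under 0.01. The interval included 0 under each of these 5 alternatives. The difference was 7.99 points (2.81 to 13.2) with gaps over 5000 bp. It was 5.38 (1.08 to 9.68) without first and last peaks. Its size is therefore not firm. The solitary set held correspondingly more of the longest class, 16.7% against 12.4% of the other mid-length peaks, and less of the class from 2000 to under 3000 bp, 19.0% against 25.5%. The median lengths of 2052 and 2102 bp hardly differed.

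**Figure D2:**
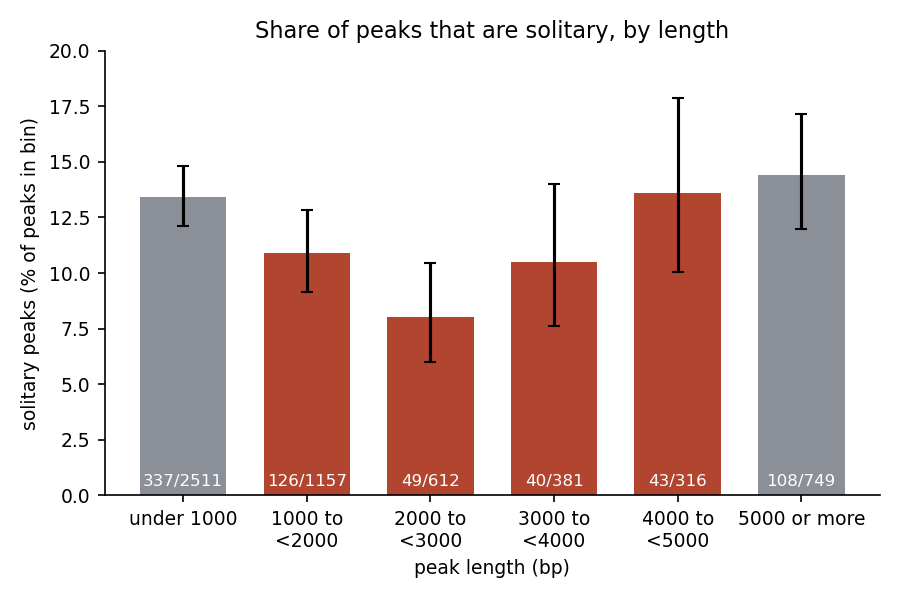
Percent of peaks with no other peak within 10000 bp (vertical axis) by peak length in bp (horizontal axis), with 95% exact binomial intervals and the number of solitary peaks over all peaks in each bar. Red bars are the 4 bins of mid-length peaks, grey bars the shorter and longer peaks. The share falls from 13.4% under 1000 bp to 8.01% from 2000 to under 3000 bp and is 14.4% at 5000 bp or more.

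The strongest solitary peak was the last peak of chromosome 13, from 6311185 to 6315042. It had 3858 bp, a fold enrichment of 5.89 and a −log10 q of 34.8, and lay 11133 bp from its only neighbor. The next was on chromosome 9 from 1136666 to 1140270, a peak of 3605 bp enriched 4.80-fold, 150683 bp from the peak on its left and 32999 bp from that on its right. Both others above 4-fold were on chromosome 16. One ran from 5091939 to 5095755 with 4.12 and the other from 39120 to 44059, near the chromosome's start, with 4.04. The fifth, on chromosome 19 from 1319085 to 1321795, reached 3.94 with a length of 2711 bp and stood about midway in a clear stretch, 50096 bp and 51311 bp from its neighbors. The smaller gaps of the peaks on chromosome 16 were 14043 and 18865 bp. Of the 4 peaks above 4-fold, only that on chromosome 9 thus had no other peak within 20000 bp, beside 169 of the 258 solitary peaks (65.5%). With 4 peaks this describes single cases. Among the 16 solitary peaks with a smaller gap over 100000 bp, the highest fold enrichment was 3.04.

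At the weak end, the 3 lowest fold enrichments were 1.63 on chromosome 4 from 7491986 to 7493426, 1.65 on chromosome 9 from 6846496 to 6847621 and 1.67 on chromosome 18 from 1356845 to 1358094. These peaks were 1441, 1126 and 1250 bp long, with −log10 q of 1.42, 1.43 and 1.38, all short of a q of 0.01.

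Great length did not always go with strong enrichment. The longest solitary peak, 4941 bp on chromosome 19 from 546267 to 551207, had a fold enrichment of 2.49. The second longest, 4940 bp, was the 4.04-fold peak at the start of chromosome 16. The third, 4938 bp on chromosome 17 from 1016235 to 1021172, had 3.21, and its gaps of 77243 and 122270 bp were wide on both sides. The fourth, 4875 bp on chromosome 12 from 267570 to 272444, had only 1.94, and the fifth, 4870 bp on chromosome 1 from 6550584 to 6555453, had 2.24. The 5 longest thus ranged over 1.94 to 4.04.

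The smaller of the gaps beside a solitary peak had a median of 29538 bp (quartiles 15720 and 50688 bp) and reached 304594 bp. The median for other mid-length peaks was 641 bp. Among the 251 solitary peaks with neighbors on both sides, the larger gap had a median of 74074 bp and a maximum of 638841 bp. It was less than 2 times the smaller gap for 119 peaks and at least 10 times for 14. The smaller gap lay on the left for 125 of the 251, so the sides were balanced. No other peak lay within 20 kb of 169 solitary peaks (65.5%), within 50 kb of 67 (26.0%) and within 100 kb of 16 (6.20%). At the other extreme, 62 solitary peaks had at least 5 other peaks within 50 kb.

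**Figure D3:**
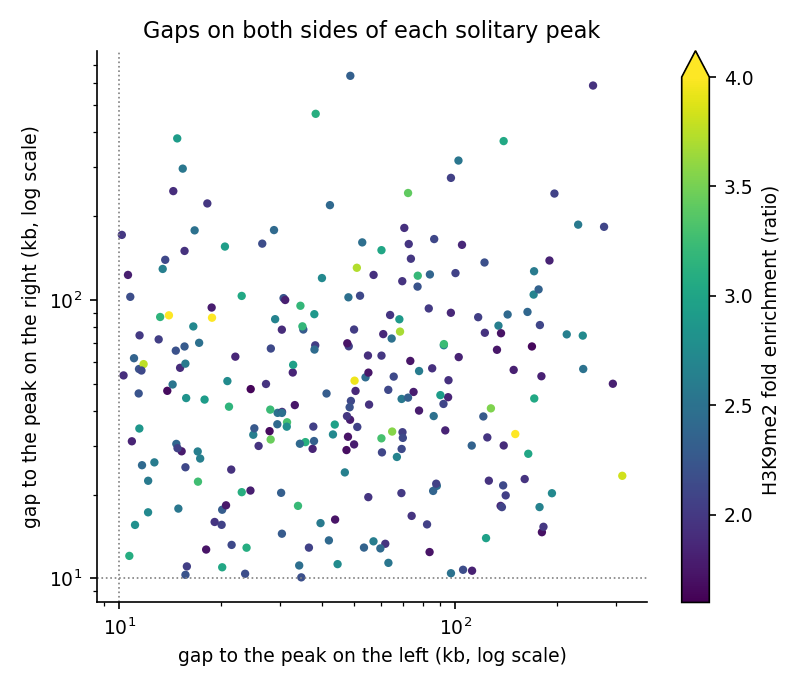
Gap to the next peak on the left (horizontal axis) and on the right (vertical axis), in kb on log scales, for the 251 mid-length solitary peaks with neighbors on both sides, colored by H3K9me2 fold enrichment (colors end at 4). Dotted lines mark the limit of 10 kb. Peaks spread over the whole plane, and fold enrichment above 3 appears at narrow and at wide gaps.

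Of the solitary peaks with neighbors on both sides, the most isolated lay on chromosome 2 from 3901302 to 3904120, 256707 bp from the peak on its left and 589507 bp from that on its right. Its 2819 bp were modestly enriched, 1.94-fold. The peak of 1642 bp on chromosome 3 from 2696841 to 2698482 had gaps of 197029 and 241237 bp and a fold enrichment of 2.07. That of 3517 bp on chromosome 6 from 8098398 to 8101914 had gaps of 231801 and 186526 bp and a fold enrichment of 2.58. Then came a peak of 1388 bp on chromosome 13 from 2514981 to 2516368 with 2.11, and one of 4852 bp on chromosome 9 from 606861 to 611712 with 3.04. Only the last of these 5 passed 3-fold. The last peaks of chromosomes 5 and 12 and the first of chromosome 20, with 1 neighbor each, had gaps of 304594, 245247 and 263845 bp and fold enrichments of 2.39, 1.86 and 2.58.

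The limits of the rule cut through a continuous range of peaks. Just inside the gap limit were peaks on chromosome 6 from 5174567 to 5176385 (gap 10084 bp, fold enrichment 2.19) and on chromosome 5 from 1607060 to 1608301 (10170 bp, 1.99). Just outside were peaks on chromosome 7 from 2907070 to 2909305 (9808 bp, 2.42) and on chromosome 3 from 3389039 to 3393446 (9803 bp, 3.37). The shortest members had 1003 bp with 1.90 and 1027 bp with 2.58, and the nearest shorter solitary peaks had 995 bp with 1.94 and 990 bp with 2.21. Beyond the 2 longest members, the next solitary peaks had 5074 bp with 5.72, on chromosome 6 from 6147835 to 6152908, and 5076 bp with 2.88.

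Every chromosome carried solitary peaks, and the shorter chromosomes carried more of them per Mb. The number ranged from 8 on chromosome 20 to 22 on chromosome 9, with a median of 12 (SD 3.45, n = 20 chromosomes). Each chromosome was measured up to its last peak. The density was 1.87 per Mb over all, from 0.95 on chromosome 1 to 3.18 on chromosome 17. At the low end, chromosomes 4, 2 and 3 had 1.05, 1.10 and 1.35, and at the high end chromosomes 9 and 15 had 2.84 and 2.63. The 10 longest chromosomes held 139 solitary peaks, or 1.62 per Mb, and the 10 shortest 119, or 2.28 per Mb. Chromosome 9 stood out among the 10 longest, whose others had at most 2.27 per Mb.

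The density of the other mid-length peaks moved the same way, from 14.8 per Mb on the 10 longest chromosomes to 18.0 per Mb on the 10 shortest. Spearman's rho with the extent was −0.68 for solitary and −0.65 for other mid-length peaks over the 20 chromosomes, as a description. As a share of all mid-length peaks, solitary ones made up 9.89% on the longest 10 and 11.2% on the shortest 10. By chromosome this share ran from 6.62% on chromosome 2 to 15.9% on chromosome 9, with a mean of 10.7% (SD 2.71, n = 20). Chromosomes 12, 19 and 14 had 14.6%, 14.1% and 14.0%. More mid-length peaks per Mb thus accompanied more solitary ones per Mb on shorter chromosomes.

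**Figure D4:**
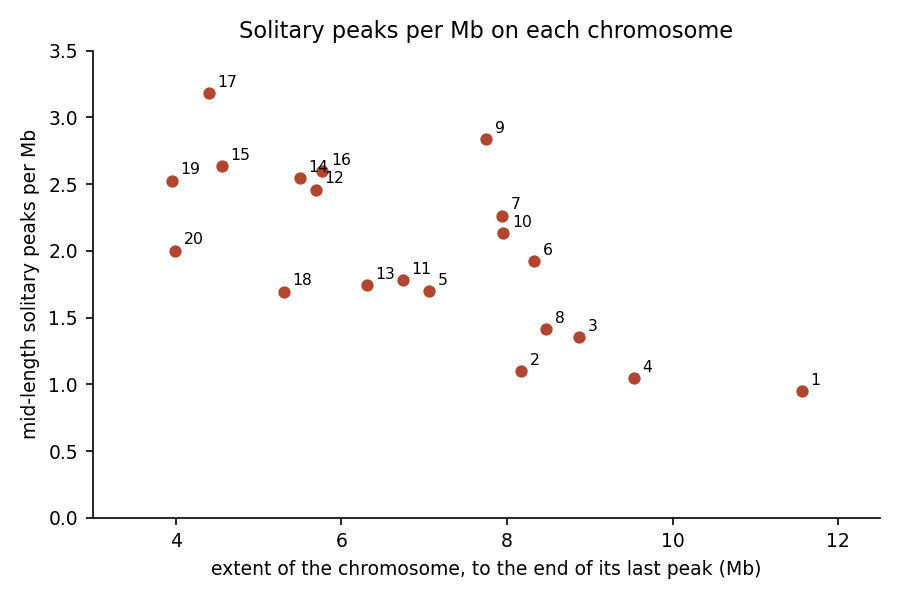
Mid-length solitary peaks per Mb (vertical axis) against the extent of each chromosome in Mb up to the end of its last peak (horizontal axis), with 1 point per chromosome and its number beside it. Chromosome 1, the longest, has the lowest value, 0.95, and chromosome 17 the highest, 3.18, while chromosome 9 with 2.84 lies above the others of its length.

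The median fold enrichment of the solitary peaks varied from 1.95 on chromosome 4 to 2.58 on chromosome 19, with 8 to 22 peaks behind each value. It was below that of the other mid-length peaks on 13 of 20 chromosomes and above it on 7. The largest differences were −0.35 on chromosome 13, −0.33 on chromosome 4 and −0.31 on chromosome 7 in the one direction and 0.26 on chromosome 17 and 0.19 on chromosome 19 in the other. The medians of the other mid-length peaks, which rest on more peaks, spread less, from 2.22 to 2.46. A lower median of the solitary peaks was therefore not seen on all chromosomes. With so few solitary peaks on each, the signs cannot tell whether the chromosomes differ.

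Along the chromosomes solitary peaks were spread more evenly than the other mid-length peaks. When each chromosome was divided into 10 equal parts, the parts held 19 to 30 of the 258 solitary peaks. The other mid-length peaks ranged from 111 in the second part to 320 in the eighth. As a result, solitary peaks made up 18.3% of the mid-length peaks in the first part and 7.25% in the eighth. On the lower-coordinate side of the midpoint lay 126 solitary peaks, or 48.8% (42.6 to 55.1), and 823 other mid-length peaks, or 37.3% (35.3 to 39.3). Shorter and longer solitary peaks had 45.1% (39.7 to 50.6) and 48.1% (38.4 to 58.0) on that side. These intervals count peaks, and those of the other mid-length peaks are too narrow because such peaks lie close together. By chromosome, more of the other mid-length peaks lay on the higher-coordinate side on 16 of 20. The solitary peaks were split 9 against 10 with 1 tie. Whether the low-coordinate ends of different chromosomes correspond to each other was not examined, so the pooled sides and parts may have no common direction. The gap rule itself removes peaks where they are dense, so an even spread of the members is in part built into their choice.

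**Figure D5:**
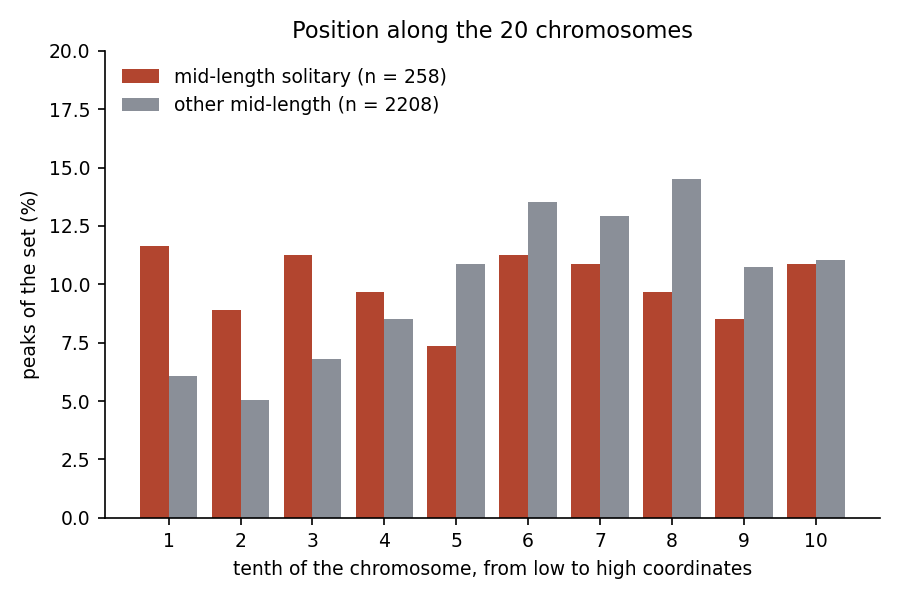
Percent of the mid-length solitary peaks (red, n = 258) and of the other mid-length peaks (grey, n = 2208) in each of 10 equal parts of the chromosomes (horizontal axis, from low to high coordinates, 20 chromosomes together). Solitary peaks hold between 7.36% and 11.6% in every part, and the other mid-length peaks between 5.03% and 14.5%.

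Few solitary peaks lay where H3K9me2 was densest. The 500 kb most covered by peaks on each chromosome, found in windows of 50 kb, make up 7.25% of the sequence. They held 11 solitary peaks (4.26%) and 585 other mid-length peaks (26.5%), a contrast that the gap rule favors. The stretches of 13 chromosomes held none. The 11 had a median fold enrichment of 2.73, beside 2.21 for the 247 outside, and a median smaller gap of 28195 bp with a maximum of 64597 bp. A lone mid-length peak thus lay in some of the most densely marked stretches, but not in those of 13 chromosomes.

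Solitary peaks lay beside solitary peaks and chains in about the proportions of the units of the list, where each chain counts once. Of the 509 neighboring peaks, 199 (39.1%) were themselves solitary, beside 39.5% of all units of the list. Among them were 96 short, 66 mid-length and 37 long solitary peaks. The other 310 stood at the edge of a chain, with 147 short, 130 mid-length and 33 long peaks. Between chains on both sides, or beside a chain at a chromosome's edge, lay 99 solitary peaks, and 40 had a solitary peak on both sides.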

How the data were processed

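The data are the broad peaks of 1 H3K9me2 ChIP-seq library of line 9509. Per the methods, the authors trimmed reads with Trimmomatic, mapped them with bowtie1 (at most 2 mismatches, a single place in the genome), sorted with SAMtools, removed duplicates with Picard, made BED files with bedtools and ran MACS2 in broad mode on this library. The versions used for these steps are not stated there, and the bedtools version given belongs to an overlap test with retrotransposons. Reads with several places in the genome were dropped, which lowers signal over near-identical repeats and can widen gaps. Broad calling joins nearby enriched regions. The deposited list gives, per peak, the fold enrichment (a ratio over the background estimated by MACS2; whether this was the input is not stated). The −log10 p and −log10 q were computed by the authors with MACS2. How these values and the fold enrichment were summarized over the length of a peak is not stated in the methods. The score the authors deposited, which MACS2 derives from the q as a whole number, was not used. The labels name a Hoagland mixture for growth, the methods another medium.

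Peaks were sorted by chromosome, and gaps were measured between neighboring peaks. The rule and the chain joining were tested on simulated peaks. Regions named were the 5 strongest, 5 longest, 5 most isolated and 3 weakest members, those at each limit and the longest runs of members. The most isolated with both neighbors, the chromosomes, and the members near chromosome ends were named after their values were seen. Members, lists and bins were chosen with earlier results of these data known. Alternatives were stricter lists (q under 0.01, q under 1e-05, at least 1000 bp), gaps over 5000 or 20000 bp, joined peaks, and first and last peaks left out. Intervals of shares and of the median are exact binomial (95%), and that of the difference in share is a normal approximation. That of the difference in median fold enrichment is centered on the difference and has the width of the interval of the solitary median. It leaves out the uncertainty of the other mid-length peaks. No genome sequence, gene annotation, input or DNA methylation library was used here. Python 3.11.15, NumPy 2.4.6, pandas 2.3.3, SciPy 1.17.1 and Matplotlib 3.10.9 were used.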

Additional observations from a re-analysis of the deposited data

How the results depend on the processing

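The number of solitary peaks depended on what counted as a neighbor, while their lower median fold enrichment kept its sign under all 7 alternatives (−0.18 to −0.06). The interval of this difference was centered on it with the width of the interval of the solitary median, so it covers only the uncertainty of that median. It was −0.24 to −0.01 as reported and −0.15 to 0.03 with gaps over 5000 bp. The solitary median's own interval, 2.13 to 2.36, is not symmetric and included the other median, 2.34. The same held with gaps over 5000 or 20000 bp and without first and last peaks, but not with the stricter lists or joined peaks. Whether 0 is excluded thus depends on how the interval is built. There were 361 such peaks with a q under 0.01, 371 with a q under 1e-05, 394 with gaps over 5000 bp and 169 with gaps over 20000 bp. When only peaks of at least 1000 bp were kept there were 576, so 318 more mid-length peaks had only short peaks within 10000 bp. Joining peaks across gaps of up to 1000 bp gave 429. In that list the median fold enrichment was 2.10, the percent enriched at least 2-fold 60.8% and the difference in solitary share between the bins of 4000 and 2000 bp 1.20 percentage points. With a q under 1e-05 the median was 2.68 and the percent at least 2-fold 99.7%, because this list holds few weak peaks by construction. The excess on the lower-coordinate side over other mid-length peaks ranged from 7.67 to 14.5 percentage points, beside 11.6 as reported. It pools peaks over chromosomes whose coordinate directions may not correspond, so it is a description only. Only the differences could change sign, because counts, medians and percents cannot be negative, and none of the differences did. Of 42 values under an alternative, 33 stayed within their interval or, for counts, within 1.5 times, and 9 moved. The cause of these changes was not tested. No paired analysis was possible because there is 1 library. With no read counts the weakest mark that could be called is unknown.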

Other observations

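Solitary peaks followed each other directly in 27 places, with 21 pairs and 6 runs of 3, while 198 had no member beside them. Of the 6 runs of 3, 3 were on chromosome 9, 2 on chromosome 12 and 1 on chromosome 18. The most even run lay on chromosome 9 from 6329507 to 6419174. Its peaks were 1259, 1247 and 1336 bp long with fold enrichments of 2.12, 1.98 and 2.02, and were set 47564 and 38262 bp apart. The run at the start of the same chromosome, from 2506 to 217093, fell from 3.55 at the first peak to 2.42 and 2.10 at the next ones, with lengths of 4221, 1827 and 1348 bp. In the run from 6846496 to 7006967 a peak of 4283 bp with 2.89 stood between peaks of 1126 bp with 1.65 and 1705 bp with 1.93. On chromosome 12, the tightest run spanned 53895 bp from 3888221, with fold enrichments of 2.41, 2.28 and 1.92, and the run from 5120765 to 5259044 had 2.33, 1.81 and 2.07. The run on chromosome 18 from 1620371 to 1788207 had 1.83, 2.13 and 2.13.

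Solitary peaks that open or close a chromosome were of mixed strength. There were 7, with fold enrichments of 3.55, 3.79 and 2.58 at the first peaks of chromosomes 9, 11 and 20 and of 2.39, 1.86, 5.89 and 1.99 at the last peaks of chromosomes 5, 12, 13 and 17. The 13 solitary peaks at most 100 kb from a chromosome start or final peak had a median of 2.42 (range 1.81 to 5.89), beside 2.22 for the 245 farther in. For the 72 other mid-length peaks within the same distance the median was 2.47, beside 2.34 for those farther in. Without the 7 first and last peaks the median of the remaining 251 solitary peaks was 2.22.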
